A study of Mus musculus with 5 samples.

Results

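The Egfr locus was described in PDGFB-driven mouse gliomas, raised by injection of a virus, from 5 lists of chromatin immunoprecipitation (ChIP-seq) peaks. Its members were all peaks overlapping the window from 16550000 to 16900000 on chromosome 11 (build mm9), which holds Egfr at about 16.652 to 16.818 Mb on the plus strand. These were 40 of the 258727 peaks in the 5 lists. Olig2cKO tumours were floxed for Olig2 (Olig2f/f) and control tumours were not, and both genotypes had the same floxed background, P53f/f included. All were taken 25 days after virus injection, on a mixed background of C57Bl/6, 129Sv and CD-1. The libraries were H3K27ac in Olig2cKO and in control tumours, H3K4me3 in Olig2cKO and in control tumours, and Olig2 in control tumours, with 1 library in each group. How Cre was delivered and how many animals gave each library are not given in the sources used here, and whether Olig2 was lost from these Olig2cKO samples was not tested. The published study of these tumours asked how Olig2 bears on signalling by the PDGF and EGF receptors.

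Egfr encodes the epidermal growth factor receptor, a receptor tyrosine kinase that binds EGF, TGFα and related ligands and signals through the RAS-MAPK and PI3K pathways. In the brain it is known from neural progenitors and reactive glia, and in human glioblastoma its gene is often amplified. Acetylation of histone H3 at lysine 27 (H3K27ac) marks active promoters and enhancers, and trimethylation at lysine 4 (H3K4me3) marks mainly promoters. Olig2 is a basic helix-loop-helix transcription factor of the oligodendrocyte lineage, and factors of this class bind E-boxes, short sites of the form CANNTG.

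The promoter is shown because the histone marks at the start of Egfr differed in listing between the genotypes. The RefSeq promoter on GRCm38.p6 (chr11:16751953-16752252, plus strand) covers 250 bases before the transcript start and 50 after it, and is printed 5′ to 3′ with capitals marking TCCTCC repeats and a GC box, CCGCCC.
Egfr promoter: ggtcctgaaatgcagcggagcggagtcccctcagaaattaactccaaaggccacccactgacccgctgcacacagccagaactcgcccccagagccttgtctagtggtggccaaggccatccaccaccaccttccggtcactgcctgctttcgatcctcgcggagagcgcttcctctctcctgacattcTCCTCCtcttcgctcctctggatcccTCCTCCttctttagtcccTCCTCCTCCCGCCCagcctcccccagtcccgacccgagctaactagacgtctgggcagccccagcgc
On either strand these 300 bases held TCCTCC 4 times, with 1 pair of matches overlapping, and CCGCCC 1 time, overlapping the last repeat by 1 base. TCCTCC occurs in 34.4% and CCGCCC in 35.9% of 27025 RefSeq promoters of the same length. CANNTG was matched 0 times, and 72.1% of those promoters hold it. TATAAA was also matched 0 times, against 14.2% of promoters. Its GC content was 62.3%, where the median promoter had 52.7%. The matches describe these letters only, and the absence of CANNTG from this window says nothing of binding elsewhere.

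At the start of Egfr, H3K4me3 was listed in both genotypes, while H3K27ac was listed in Olig2cKO tumours and not in control tumours. In Olig2cKO tumours 1 H3K4me3 peak ran from 16651417 to 16654895 (3479 bp), with a score of 1424.91. A score is the peak caller's own measure of strength and can be ranked only inside its list, where 85.3% of Olig2cKO H3K4me3 peaks were lower. In control tumours the same stretch held 2 H3K4me3 peaks, from 16651550 to 16652779 (1230 bp, score 188.19) and from 16652896 to 16654355 (1460 bp, score 277.97), with 34.6% and 44.6% of the control list below them. The stretch was 1 broad peak in the Olig2cKO list and a split pair in the control list. The control pair became 1 peak when peaks within 1 kb were merged inside each list. Over the whole Olig2cKO list, with peaks of any width, 5.71% of H3K4me3 peaks overlapped 2 or more control peaks.

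Acetylation at the start consisted of 2 Olig2cKO peaks, from 16651602 to 16652249 (score 91.58) and from 16653115 to 16653920 (score 77.45). Both were weak, with 26.0% and 19.3% of the Olig2cKO H3K27ac list below them. The nearest control H3K27ac peaks were 56.6 and 54.9 kb away. Peaks of such low rank often lack a partner, since 51.9% and 60.1% of the Olig2cKO peaks in their score deciles (10 classes of a list by score) did. A separate count, over H3K4me3 peaks, took those shared by both genotypes but acetylated in Olig2cKO tumours alone. Such a state held for 8.28% of the 38429 Olig2cKO H3K4me3 peaks with a control partner, while 62.7% were acetylated in both genotypes, 23.8% in neither and 5.21% in control tumours alone. It held for 7.19% of the partnered peaks in the Olig2cKO score decile of the Egfr start peak. The share among pairs of the same control score was not counted. A peak that is not listed is not shown to be absent, and control H3K4me3 peaks of the ranks found here lacked control H3K27ac in 40.2% and 39.5% of cases.

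The same listing was found about 14 kb into the gene. H3K4me3 was listed there in Olig2cKO tumours from 16665817 to 16667265 (score 549.74) and in control tumours from 16666053 to 16666969 (score 221.46). H3K27ac covered the site in Olig2cKO tumours alone, from 16665515 to 16667298, with a score of 318 that exceeded 72.7% of its list. In that score decile only 8.98% of Olig2cKO H3K27ac peaks had no control partner. In the score decile of this Olig2cKO H3K4me3 peak, 11.3% of partnered peaks were acetylated in Olig2cKO tumours alone. Further into the gene, from 16669225 to 16670653, Olig2cKO tumours had an H3K27ac peak (score 125.59) and a barely listed H3K4me3 peak (score 50.83), and the control histone lists had no peak. Control tumours carried an Olig2 peak at that site.

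**Figure D1:**
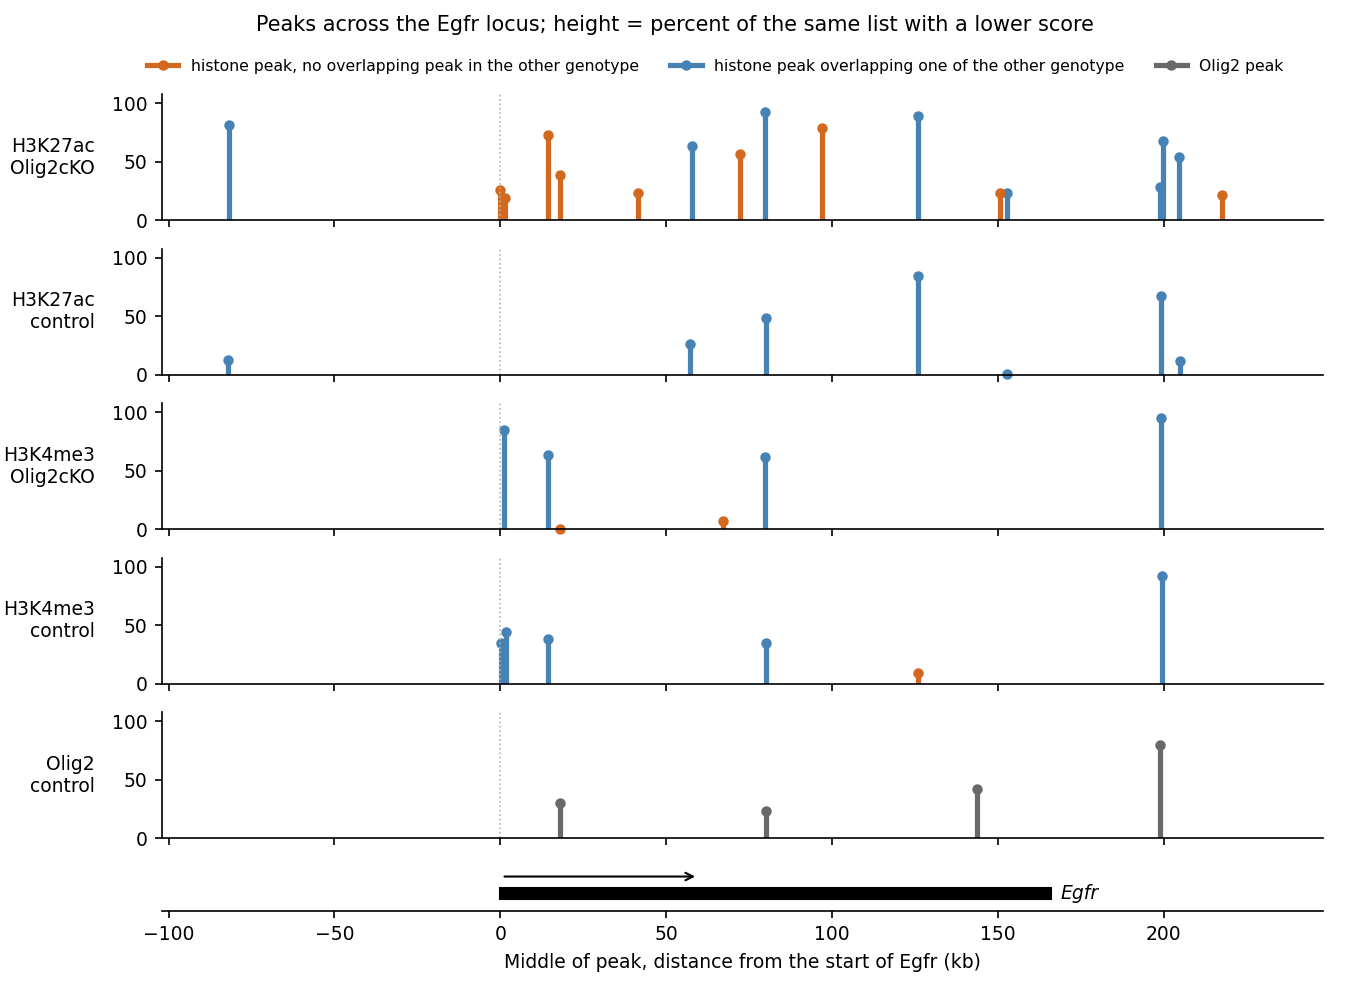
Peaks across the Egfr locus, with the middle of each peak in kb from the Egfr start on the x axis and, for each of the 5 lists, the percent of the same list with a lower score on the y axis. Orange peaks had no overlapping peak of the same mark in the other genotype. Between the peak upstream and the one at 57.3 kb the control H3K27ac list is empty, while the Olig2cKO list has 5 orange peaks there.

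Across the locus H3K27ac was listed more often in Olig2cKO tumours, with 17 peaks, than in control tumours, with 7 peaks. These peaks covered 23.9 kb of the window in Olig2cKO tumours and 7.73 kb in control tumours, a ratio of 3.08, where the whole lists covered 122 Mb and 101 Mb, a ratio of 1.21. Inside the Egfr span the counts were 12 in Olig2cKO tumours and 4 in control tumours, and the covered lengths were 18.1 kb and 4.6 kb. H3K4me3 was listed in 6 peaks in each genotype, covering 11.9 kb in Olig2cKO tumours and 8.12 kb in control tumours, a ratio of 1.47. The whole H3K4me3 lists covered 77 Mb in Olig2cKO tumours and 62.4 Mb in control tumours, a ratio of 1.23. With 1 library of unknown depth per group these are differences between libraries, with no replicate check. In bulk tumour tissue, more cells with a mark and more of the mark per cell cannot be told apart.

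Of the 17 Olig2cKO H3K27ac peaks, 9 (52.9%, exact 95% interval 27.8 to 77.0) had no control partner, where 30.9% of the whole list had none. Of the 7 control peaks, 0 lacked an Olig2cKO partner, where a count of 0 allows up to 3 of 7 (42.9%) and the exact 95% interval runs up to 41.0%, and 17.9% of the control list lacked one. The interval for Olig2cKO peaks includes the share of the whole list, but it treats neighbouring peaks as independent and is not a test. Allowing for score, the decile shares of the 17 Olig2cKO peaks summed to 5.2 peaks without a partner, and those of the 7 control peaks to 1.75. With both lists cut to equal length, 9 of 17 also lacked a partner, where the whole list gave 23.2%. With the upper 50% of each list by score, 7 of 9 lacked one, beside 32.8% of the list. Against the whole control list, 3 of those 9 lacked one, beside 10.7%.

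The 5 highest of the 9 Olig2cKO-only peaks had scores of 389.2, 318, 199.27, 125.59 and 91.58. The highest, from 16748178 to 16750102, lay about 97 kb into the gene without H3K4me3 in either genotype, and its nearest control H3K27ac peak was 15.5 kb away. With 78.6% of its list below it, it also fell in the decile where 8.98% lacked a partner. The peak of score 199.27, from 16723183 to 16724940, overlapped no H3K4me3 peak either and lay 6.4 kb from a control H3K27ac peak. The other 4 were weak, with scores of 77.45 to 86.05, and 1 of them lay downstream of the gene, from 16869246 to 16869906. The decile plot shows that both Olig2cKO peaks of the eighth decile lacked a partner, while 6 of the 9 Olig2cKO-only peaks lay in the lowest 4 deciles.

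**Figure D2:**
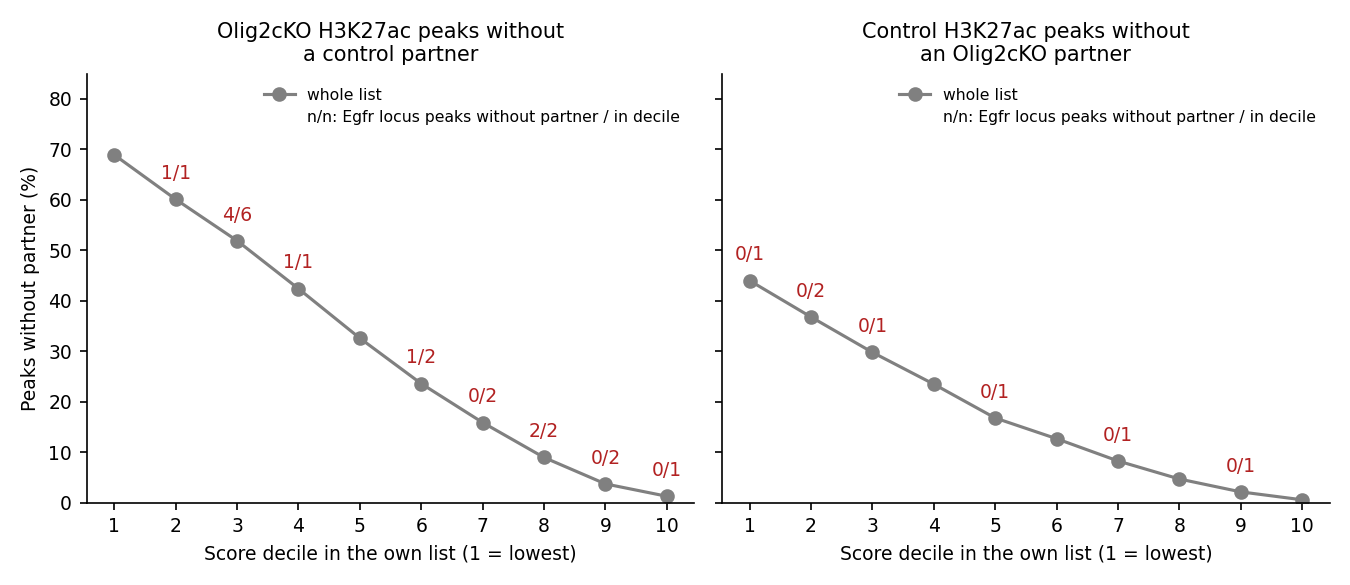
Percent of H3K27ac peaks without a partner by score decile of the own list, for Olig2cKO peaks on the left and control peaks on the right (grey, whole list), with the number of Egfr locus peaks without a partner over the number in that decile in red. In Olig2cKO tumours 9 of 17 locus peaks lacked a partner, and in control tumours 0 of 7 did.

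The Olig2cKO-only sites were found with and without H3K4me3. After the peaks of the 4 histone lists were merged, the locus held 16 regions, 7 with H3K27ac in both genotypes, 8 with it in Olig2cKO tumours alone, 0 with it in control tumours alone and 1 with none. Among 91242 merged regions of the whole lists these states made up 49.6%, 23%, 10.8% and 16.7%. Of the 8, 2 carried H3K4me3 in both genotypes, 5 carried it in neither, and the remaining region carried it in Olig2cKO tumours alone. Over all regions acetylated in Olig2cKO tumours alone, 14.5% carried H3K4me3 in both genotypes, 75.4% in neither, 9.52% in Olig2cKO tumours alone and 0.658% in control tumours alone. With 8 regions at the locus, no difference from these shares was tested. Peaks without H3K4me3 of the same genotype, here called distal, were 10 of 17 in Olig2cKO tumours and 4 of 7 in control tumours, where 50.3% and 49.8% of the whole lists were distal. The distal peaks were scattered, with a median gap of 23 kb in Olig2cKO tumours and 94.6 kb in control tumours. Stitching distal peaks into domains of 3 or more, as is usual for clustered enhancers, gave 0 domains at this locus in either genotype. The whole lists gave 2148 in Olig2cKO tumours and 1419 in control tumours, while 6671 windows of 350 kb held a peak of any list. Among all such windows a count of 0 is therefore not unusual, but windows with as many distal peaks as this locus were not examined.

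H3K27ac sites listed in both genotypes ranked differently from each other. The strongest Olig2cKO H3K27ac peak, from 16730464 to 16733157 (2694 bp), had a score of 772.14, and its control partner, from 16731370 to 16732649 (1280 bp), had 170.58. It lies about 80 kb into the gene, where H3K4me3 was also listed in both genotypes, with scores of 517.12 in Olig2cKO and 188.57 in control tumours. At the strongest control H3K27ac peak, from 16777165 to 16778825, the scores were 618.68 for the Olig2cKO partner, from 16776933 to 16778878, and 577.5 for the control peak. That site also carried a control H3K4me3 peak (from 16777585 to 16778102, score 70.73), the only control-only H3K4me3 peak of the locus. Beyond the gene, 2 Olig2cKO peaks, the stronger from 16851302 to 16852244 (score 274.73), overlapped 1 control peak from 16850354 to 16852204 (score 302.27), a split that 3.69% of control H3K27ac peaks showed. Upstream, about 82 kb before the start, the Olig2cKO peak from 16569289 to 16570859 had a score of 435.83 and its control partner, from 16569469 to 16570169, had 67.42. The control H3K27ac peak nearest the Egfr start was 56.8 kb into the gene, from 16708799 to 16709894. The score there was 245.55 in the Olig2cKO list, for the peak from 16708761 to 16710593, and 95.11 in the control list.

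Because scores are not scaled between libraries, each pair was set beside all pairs whose control peak fell in the same control score decile, taking the strongest partner of each control peak. The Olig2cKO score was above 99.1% of such partners at the 80 kb site, above 97.0% at the upstream site and above 68.0% at the strongest control peak. At the remaining 4 control H3K27ac peaks it was above 82.2%, 32.0%, 50.0% and 73.9%, listed from the Egfr start onward. For H3K4me3 the Olig2cKO peak at the Egfr start stood above 97.8% and 97.0% of partners by its 2 control peaks. Both values belong to 1 Olig2cKO peak, set beside each part of the split control pair, and are not independent. Its rank against the merged pair was not computed. The H3K4me3 peaks about 14 and 80 kb into the gene stood above 88.6% and 87.0%. The strong H3K4me3 peak beyond the gene stood near the middle, above 51.2%. These ranks describe 1 library against 1 library and carry no replicate check.

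**Figure D3:**
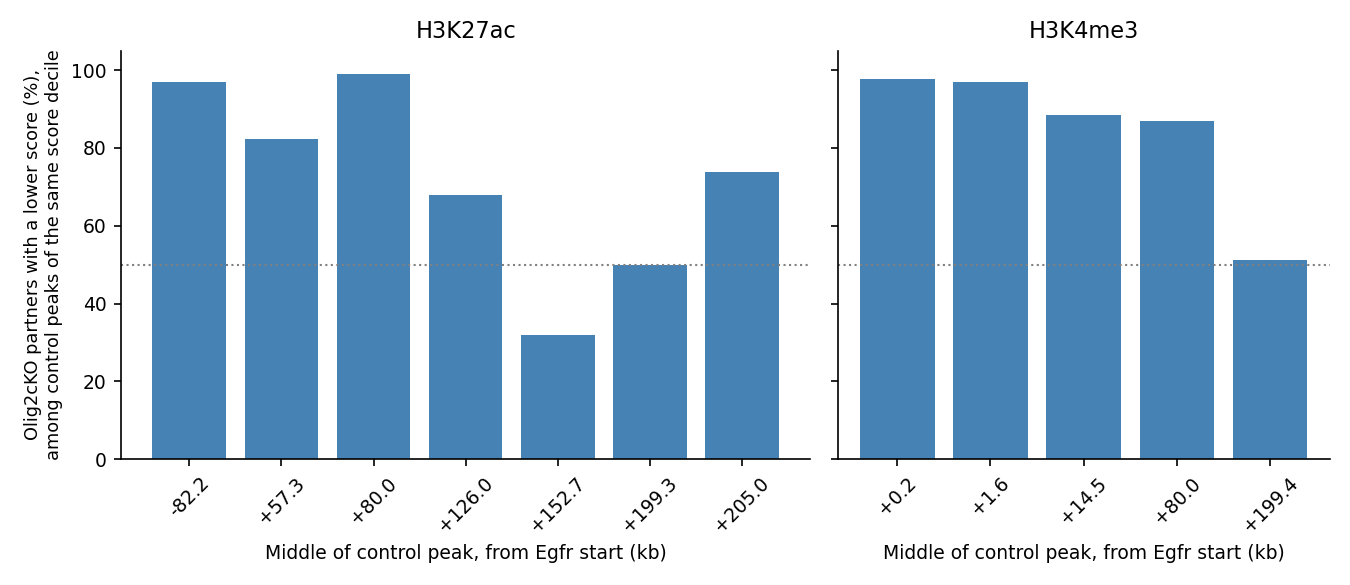
Percent of Olig2cKO partner peaks with a lower score than the one at the Egfr locus, among control peaks of the same score decile, for each control peak with a partner (x axis, kb from the Egfr start) and each mark. The dotted line is 50%. Both H3K4me3 bars nearest the Egfr start belong to the same Olig2cKO peak, set beside each part of a split control pair. The highest H3K27ac bar is 99.1% at 80.0 kb, and the bars near 199 kb, beyond the gene, are 50.0% for H3K27ac and 51.2% for H3K4me3.

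Most partnered peaks were also wider in Olig2cKO tumours. The 6 H3K27ac peaks with a single partner had a median width of 1702 bp in Olig2cKO and 898.5 bp in control tumours, and all 6 were wider in Olig2cKO tumours, by 285 to 1414 bp. Over all 43120 such pairs 57% were wider in Olig2cKO tumours, with a median difference of 73 bp, against 723.5 bp at the locus. Over all overlapping pairs 6 of 8 were wider in Olig2cKO tumours. The exceptions were the 2 Olig2cKO peaks beyond the gene that share 1 wider control peak, with differences down to -916 bp. Of the H3K4me3 peaks 3 had exactly 1 partner, and all 3 were wider in Olig2cKO tumours, by 66 to 1182 bp, where 76.7% of all such pairs were. The depth of the libraries is unknown, so widths are not on a common scale.

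For H3K4me3 the 2 Olig2cKO-only peaks (of 6, 33.3%, exact 95% interval 4.33 to 77.7) were weak. They ran from 16669294 to 16670446 (score 50.83) and from 16718859 to 16719430 (score 64.01), with 0.536% and 7.05% of their list below them. In the whole list 21.4% of peaks were Olig2cKO-only. Among peaks of the lowest score decile, to which both belong, 70.1% were Olig2cKO-only. The 1 control-only peak of 6 (16.7%, 0.421 to 64.1) was set against 8.13% of the control list. The strongest H3K4me3 peak of the locus lay beyond the gene in both genotypes, from 16849701 to 16852859 (score 2306.74) in Olig2cKO tumours and from 16849885 to 16852977 (score 2109.11) in control tumours. It is not assigned to a gene here. RefSeq on GRCm38.p6 orders the long noncoding RNA Eldr and the protein-coding genes Fbxo48 and Plek after Egfr, so marks in that part of the window need not belong to Egfr. RefSeq also places the long noncoding RNAs Gm39584 and Egfros inside Egfr, and their positions were not compared with the peaks. Marks within the gene therefore need not be its own either.

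Olig2 was listed at 4 sites of the locus in control tumours, none of them at the Egfr start. The strongest ran from 16850487 to 16851588 (score 172.46), under the strong H3K4me3 peak beyond the gene, with 79.5% of the Olig2 list below it. The other 3 lay inside the gene and were weaker. They ran from 16795198 to 16795926 (score 82.61), from 16669507 to 16670206 (score 69.73) and from 16731808 to 16732246 (score 64.13), with 42.2%, 30.2% and 23.7% of the list below them. The nearest to the Egfr start was 17.5 kb into the gene.

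The 4 Olig2 sites differed in their histone marks. The site about 80 kb into the gene and the one beyond the gene overlapped all 4 histone lists, which 42.5% of all Olig2 peaks did. The site at 17.5 kb overlapped both marks of Olig2cKO tumours and no mark of control tumours. Of all Olig2 peaks, 7.42% had H3K27ac in Olig2cKO tumours alone, whatever their H3K4me3. The share with both marks in Olig2cKO tumours alone was not counted. The site at 143.2 kb overlapped 0 of the 4 lists, as did 17.1% of Olig2 peaks. Thus 3 of 4 lay on Olig2cKO H3K27ac and 2 of 4 on control H3K27ac, where the whole Olig2 list gave 70.2% and 68.9%. Counts for H3K4me3 were the same, 3 and 2 of 4, beside 58.1% and 55.6%. With 4 peaks no difference from these shares was tested. The exact interval for 2 of 4 runs from 6.76 to 93.2%, even with the peaks treated as independent. In the other direction, an Olig2 peak lay at 4 of the 17 Olig2cKO H3K27ac peaks (23.5%, 6.81 to 49.9) and at 2 of the 7 control ones (28.6%, 3.67 to 71.0), where the whole lists gave 42.5% and 49.5%. At H3K4me3 peaks Olig2 lay at 3 of 6 in Olig2cKO tumours and 2 of 6 in control tumours, where the whole lists gave 50.3% and 55.7%. Of the Olig2cKO-only H3K27ac peaks, 1 of 9 lay on an Olig2 site (11.1%, 0.281 to 48.2), from 16669225 to 16670653, where 14.2% of all Olig2cKO-only H3K27ac peaks did.

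To place the locus in the genome, its counts were set beside 6671 windows of 350 kb that held a peak of any list. The Olig2cKO H3K27ac count of 17 exceeded 76.9% of windows (median 9), and the control count of 7 exceeded 47.1% (median 7). For H3K4me3 the count of 6 equalled the median of 6 in each genotype, and for Olig2 the count of 4 was below the median of 5. The excess of 10 Olig2cKO over control H3K27ac peaks was reached or passed in 76 windows (1.14%), and the median excess was 2. A window with fewer than 10 Olig2cKO peaks cannot reach that excess, and the median window held 9. At least 9 Olig2cKO-only peaks occurred in 4.32% of windows, and in 0.72% together with 0 control-only peaks. The thresholds of 10, 9 and 0 are the values of the locus itself. Among 983 windows with 15 to 19 Olig2cKO H3K27ac peaks, the Olig2cKO-only share of 52.9% was above 92.0% of windows (median 26.7%), a comparison chosen after the data were seen. The locus itself was chosen with results known, so these ranks describe it and are not a test.

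**Figure D4:**
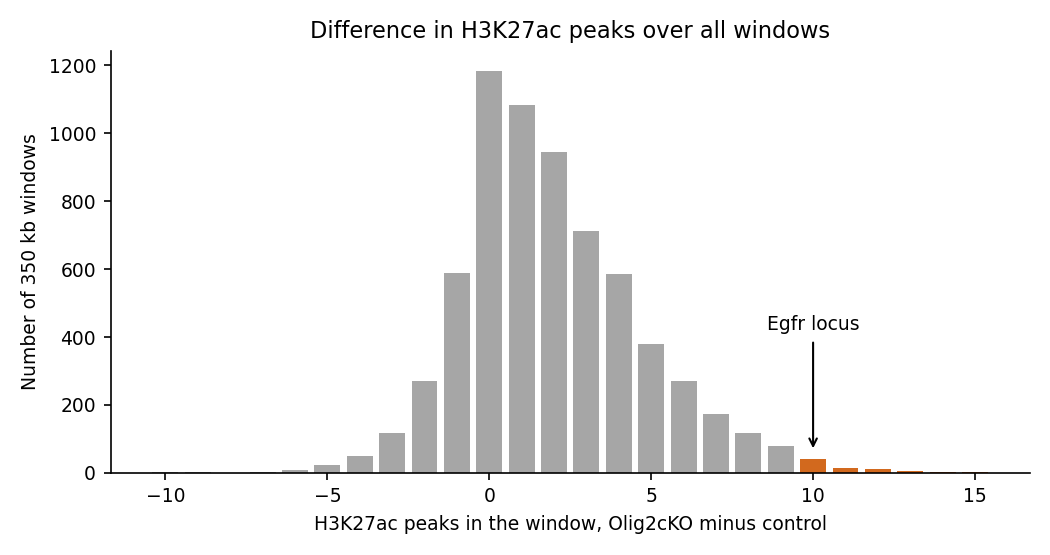
Number of 350 kb windows by the difference in H3K27ac peaks, Olig2cKO minus control, with windows at a difference of 10 or more in orange. The Egfr locus stands at 10, where 1.14% of windows reach or pass it. Windows with too few peaks to reach such a difference are included.

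No peak crossed the limits of the window. The first and last members in any list were the upstream H3K27ac peak and the Olig2cKO peak that ends at 16869906. The nearest peak before the window was an Olig2cKO H3K4me3 peak (score 336.12) that ended at 16528712. The nearest after it were H3K4me3 peaks from 16906534 in Olig2cKO tumours (score 496.57) and from 16906508 in control tumours (score 325.43).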

How the data were processed

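ChIP-seq peak lists of 5 libraries from mouse glioma were analysed. CASAVA, Bowtie2 and MACS are named for build mm9, per the submitters' processing notes, without versions or settings. Each deposited list gives the start, end and caller's score of the peaks of 1 library. The lowest score of each list lay between 50 and 50.02, a floor typical of the −10 log10 scale of MACS. These deposited scores are not scaled between libraries and served to rank or filter peaks inside a list. Use of an input and the read depth are not given in the sources used here, and list length can move with depth.

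Peaks overlapping the window by 1 bp or more were members, and a partner was a peak of the other genotype overlapping by at least 1 bp. Python 3.11.15 (pandas 2.3.3, numpy 2.4.6) counted the overlaps. The overlap step was tested on simulated lists of widely spaced peaks with slightly shifted partners, which does not test split or closely spaced peaks. Its counts on the deposited lists were identical to bedtools 2.31.1 in 3 comparisons. Exact (Clopper-Pearson) 95% intervals came from scipy 1.17.1 and cover counting error only. They treat peaks as independent, which neighbouring peaks of a library need not be. Figures used matplotlib 3.10.9. With 1 library per group no test between genotypes was possible and no p-value is given.

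The locus, peak rules and alternatives were chosen with earlier results of these data known. The rule named the peak of each list nearest the Egfr start, the 3 highest scores of each list, all Olig2 peaks, and up to 5 genotype-only peaks by score per mark and direction. Partners stand beside these peaks, and the second acetylated peak at the Egfr start and the downstream Olig2cKO-only peak were named after their values were seen. Other ErbB pathway genes, and exon or intron positions of peaks, were not analysed here. Part of the genotype that both groups share is not reported here.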

Additional observations from a re-analysis of the deposited data

How the results depend on the processing

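The 9 Olig2cKO-only H3K27ac peaks became 3 when the upper 50% of that list was set against the whole control list, where 10.7% of the list lacked a partner, and numbered 7 to 11 under the other 7 settings. Control-only H3K27ac peaks stayed at 0 under all 8 settings. The Olig2cKO-only H3K4me3 count was 0 with the upper 50% against the whole other list and with lists of equal length. It was 3 of 4 when each list kept its upper 50%. Those 4 peaks all overlap peaks of the whole control list, so the 3 arose because the cut removed weaker control peaks. The share of the whole list at that setting is not given here. The control-only H3K4me3 count was 0 with the upper 50% of each list or of its own list, and 2 with the window widened by 100 kb on each side. Olig2 peaks on control H3K27ac numbered 1 with either upper 50% setting and with the gene span alone, and 4 in the widened window. On control H3K4me3 they numbered 1, 1, 1 and 5 under these settings. The 3 Olig2 peaks on Olig2cKO H3K27ac became 1 with either upper 50% setting, 2 with lists of equal length or the gene span alone, and 7 in the widened window, and on Olig2cKO H3K4me3 1, 2 and 6. Over all overlapping pairs the median H3K4me3 width difference was 1182 bp, against 532 bp with exactly 1 partner, and for H3K27ac it was 649 bp against 723.5 bp. Moving the windows by 50% of their length changed the share reaching the excess of 10 from 1.14% to 1.28%, and the median excess from 2 to 1. Among the 5 lists the rank of the control H3K27ac count moved most, from 47.1% to 46.4%. Stitching at 5 kb also gave 0 domains. Pathway genes were not run. Counts this small and an unknown depth limit every comparison. No paired analysis was possible because each group had 1 library.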

Other observations

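On either side of the locus, windows of the same length held similar numbers of H3K27ac peaks in both genotypes. The window before it held 5 peaks in Olig2cKO tumours and 4 in control tumours, with 1 Olig2cKO-only and 0 control-only peaks. The window after it held 11 peaks in Olig2cKO tumours and 9 in control tumours, with 4 Olig2cKO-only and 2 control-only peaks. Covered lengths were 9.91 kb in Olig2cKO tumours and 7.9 kb in control tumours before the locus, and 16.1 kb and 12.7 kb after it. Within the locus they were 23.9 kb in Olig2cKO tumours and 7.73 kb in control tumours. H3K4me3 covered 6.69 kb in Olig2cKO tumours and 7.37 kb in control tumours before the locus, and 17.3 kb in Olig2cKO tumours and 15.4 kb in control tumours after it. These windows were chosen after the data were seen, and each value rests on 1 library.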
